A study of Cynoglossus semilaevis with 30 samples.

Results

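Liver of the tongue sole Cynoglossus semilaevis, a flatfish of Chinese waters in which females outgrow males, was studied in 6 libraries that were set against the 24 libraries of brain, pituitary, gonad and muscle from the same study. The liver libraries were taken by their labels, 3 from large and 3 from small females, and make up 6 of the 30 libraries of the series. All fish were females aged 1.7 years, and the labels name no further treatment. Per the labels the RNA of 2 fish was pooled for a library, and the design text of the series names 6 large and 6 small fish. Each of the 5 tissues thus has 3 libraries of large and 3 of small females. By these numbers the 3 libraries of a size class would hold the same 6 fish in every tissue. The labels do not say whether libraries with the same number in different tissues came from the same fish, and p-values measure the spread between these libraries.

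The liver makes most proteins of the blood plasma, among them apolipoproteins, transferrin, fibrinogen and complement, and in egg-laying vertebrates also the yolk precursor vitellogenin under estrogen. It stores and releases glucose, breaks down amino acids, makes bile acids and is a main source of insulin-like growth factor. In many bony fishes exocrine pancreas tissue lies scattered along the vessels of the liver, so dissected liver can hold acinar cells, which secrete trypsin, chymotrypsin, elastase and other digestive enzymes. Genes were therefore told apart by product name as hepatocyte or pancreatic.

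The libraries held 6130671 to 10504899 estimated counts, and the liver libraries 7827127 to 9622397. The 10 genes with most counts held 26.2 to 35.3% of the counts of a liver library, against 5.73 to 8.86% in gonad and 40.5 to 46.2% in muscle. Each liver library had fewer genes at 1 CPM (counts scaled to library total) or more than any library of the other tissues: 10291 to 12485 in liver, against 16809 to 17210 in brain and 12873 to 14304 in muscle. For that number the exact permutation test of 6 against 6 libraries gave an adjusted p of 0.00216 for each of the 4 tissues, the smallest such a test can give. The TMM scaling factors, which set the effective size of a library, were 0.288 to 0.63 in liver, against 1.53 to 2.05 in brain, 1.70 to 1.80 in pituitary, 1.23 to 1.65 in gonad and 0.403 to 0.565 in muscle.

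The defining genes of hepatocytes were high in each library labelled liver. Apolipoprotein A-I (apoa1), the main protein of high-density lipoprotein, was at 28165, 32009 and 26239.5 FPKM in livers of large females and 19221, 30569.9 and 31858 FPKM in livers of small females. The highest of the 24 other libraries, a brain of large females, reached 2324 FPKM (fragment counts scaled to transcript length and library total). Serotransferrin (tfa, the iron carrier of plasma), the 3 fibrinogen chains, prothrombin (f2), complement C3 and hepatocyte nuclear factor 4-alpha (hnf4a), a transcription factor of hepatocytes, were all present in each of the 6 libraries, and their liver values lay above all 24 other values in FPKM. The exception was a further fibrinogen alpha chain-like gene (LOC103389614), whose lowest liver had 3.96 FPKM and whose highest other library, a gonad, had 9.29 FPKM. For hnf4a the liver values were 15.7, 23.2 and 22.6 FPKM in livers of large females and 34.8, 40.9 and 20.2 FPKM in livers of small females, against at most 1.21 FPKM elsewhere. In bulk tissue, fewer cells of a type and less RNA per cell cannot be told apart.

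Of 19511 genes tested with size class as a covariate, 5249 (26.9%) were higher in liver than the mean of the 4 other tissues and 8034 (41.2%) were lower, at an adjusted p below 0.05 by the quasi-likelihood test of edgeR. Against each of the 4 tissues in turn, 1815 genes (9.3%) were higher in liver and 1711 (8.77%) lower. In 1104 genes (5.66%) all 6 liver libraries lay above all 24 others in TMM-normalised CPM, and in 529 (2.71%) all 6 lay below. The genes higher than in each tissue held 80.7 to 89.3% of the counts of a liver library, and at most 17.1% elsewhere, as their choice implies.

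These counts moved with the measure and test used. Of all genes called against the mean of 4 tissues, 39.5% were higher in liver with TMM, but 8.46% (1500 higher and 16236 lower) when limma was run on log2(FPKM + 1), where no such factor is applied and the test differs too. The parts of the scale and of the test in this move were not separated, and RLE (median-of-ratios) factors with the same edgeR test gave 44.1%. The median log2 fold change over all genes tested was -0.49 with TMM, -0.36 with RLE scaling and -1.06 on the FPKM scale, shifts of 0.13 and -0.57 from TMM. Folds are therefore given as fitted with TMM, and list medians relative to the median of all genes. TMM counts of list members are to be read beside the shares of all genes. These were 26.9% higher and 41.2% lower than the mean, and 9.3% higher and 8.77% lower than in each tissue. On the FPKM scale the exocrine pancreas list still had 30 of 33 genes higher, complement 20 of 20, apolipoproteins 18 of 19 and hepatocyte transcription factors 23 of 28. Of all 19462 genes on that scale 1500 were higher and 16236 lower, and FPKM counts of a list are to be read beside these.

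**Figure D1:**
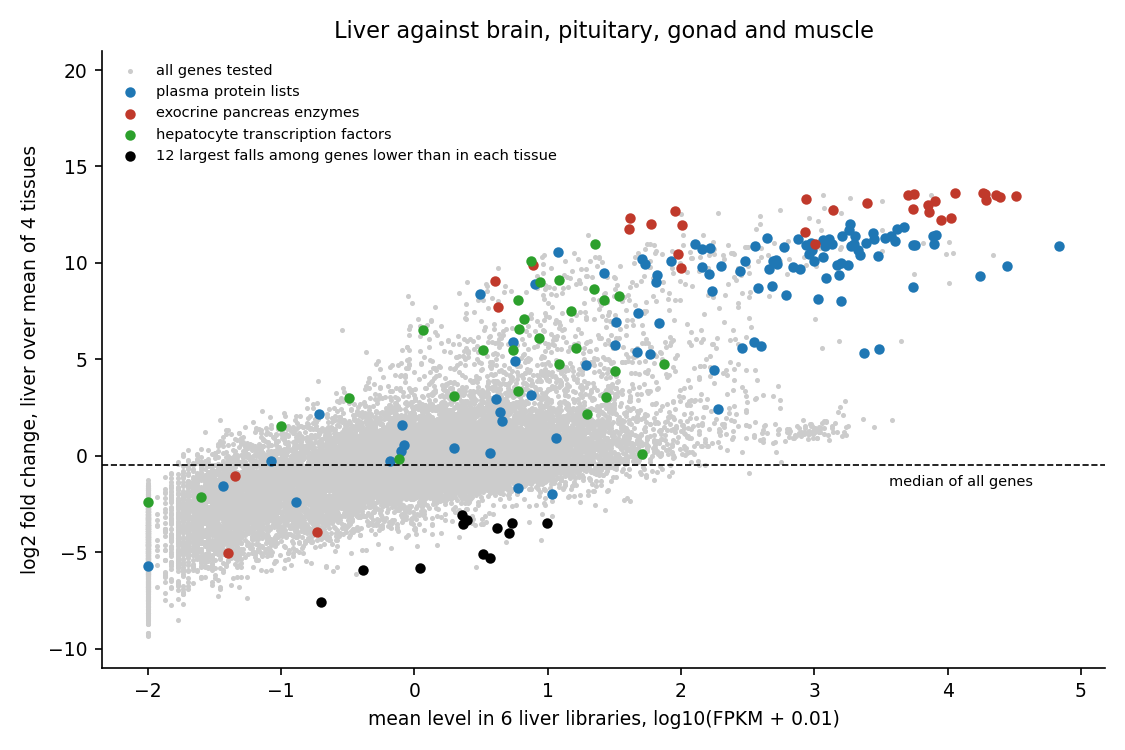
Each point is 1 of the genes tested, with its mean level in the 6 liver libraries (log10 of FPKM + 0.01) against its log2 fold change of liver over the mean of the 4 other tissues (edgeR, TMM). The dashed line marks the median of all genes, -0.49. Exocrine pancreas enzymes (red) and plasma protein lists (blue) fill the upper right, hepatocyte transcription factors (green) are high in fold at low levels, and the 12 largest falls (black) lie below the median line.

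By mean FPKM over the 6 livers the most abundant transcript was lect2, leukocyte cell-derived chemotaxin-2, a protein the liver secretes into plasma. In the first and the third large livers trypsin-1 (trypsase, described below) was higher. The level of lect2 was 20769, 53275 and 31836 FPKM in livers of large females and 147020.0, 84305 and 75893 FPKM in livers of small females. Among the 24 other libraries it was highest in a muscle of large females, at 4140.2 FPKM, and it stayed at or below 133 FPKM in brain. All 6 livers lay above all other libraries, and the log2 fold change against the mean of 4 tissues was 10.89 ± 0.51 (SE; adjusted p = 5.8e-18, edgeR). Of the 15 highest transcripts by mean liver FPKM, 8 were digestive enzymes of the exocrine pancreas list, and the others in order were apoa1, a locus with no product name, tfa, and 3 further products described next. The product of LOC103381471, named after the toxin MALT0070C, ranged over 2674, 10836 and 20375 FPKM (lowest, median and highest liver), tributyltin binding protein type 1 (LOC103393827), named for a binding protein of fish plasma, over 3463, 9265 and 25697 FPKM, and 14 kDa apolipoprotein (XLOC_006183) over 3961, 11616 and 15266 FPKM. In each of these 3 the lowest liver was above the highest other library, which reached 1272, 640.1 and 2089.8 FPKM.

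Plasma carriers and protease inhibitors were higher in liver almost throughout: 28 of 29 members were tested, 27 were higher than the mean of 4 tissues, 0 lower, and 25 were higher than in each tissue. The median of the list lay 10.47 above the median of all genes on the log2 scale. Protein AMBP (ambp), the precursor of alpha-1-microglobulin and bikunin, was at 7875 ± 1555 FPKM (SD, n = 6), and its log2 fold change was 10.97 ± 0.47 (adjusted p = 4.1e-19). Alpha-1-antitrypsin homolog (LOC103380731), a serine protease inhibitor, was at 4729.9 ± 1602 FPKM. Hemopexin (hpx), which binds free heme, was uneven, at 6306, 6666 and 8966 FPKM in livers of large females and 10.5, 889 and 11297 FPKM in livers of small females. Its lowest liver was below the highest other library (77.5 FPKM, a muscle of small females), so the groups overlapped although the gene passed against each tissue.

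Apolipoproteins and lipid carriers were almost all higher: 19 of 23 members were tested, 18 were higher than in each tissue, 1 was lower than the mean, and the list median lay 10.09 above that of all genes. Apoa1 had a log2 fold change of 9.82 ± 0.42, and its nearest tissue was muscle, at a log2 difference of 6.26. Apolipoprotein Eb (apoeb), which in mammals carries lipids also between brain cells, was at 276, 998 and 1183 FPKM in livers of large females and 5822, 4198 and 1577 FPKM in livers of small females. Its highest brain library reached 1817 FPKM and overlapped with 4 of the 6 livers. Apolipoprotein A-IV-like (LOC103389010), a protein of lipoprotein particles, spanned 136, 1465 and 7053 FPKM, and its highest liver was the first library of small females.

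All tested complement factors rose: 20 of 21 members were tested, and 20 were higher than in each tissue, with a list median 10.86 above that of all genes. Of 4 genes named complement C3-like, the central component on which the pathways meet, LOC103383958 was at 5483 ± 1760.2 FPKM and LOC103383921 at 4143 ± 1987 FPKM (SD, n = 6), and reads of such near-identical genes may have been split between them. Complement component C9 (c9), which forms the pore of the membrane attack complex, was at 2273, 4169 and 2301 FPKM in livers of large females and 5997, 4482 and 3216 FPKM in livers of small females. No other library exceeded 67.7 FPKM. Coagulation and fibrinolysis factors included 24 of 31 higher than in each tissue and 3 lower than the mean, with a list median 10.26 above that of all genes. On the FPKM scale 24 of these factors were higher than the mean and 6 lower. The fibrinogen chains were close to each other in fold, at 11.46 ± 0.47 for gamma (fgg), 11.39 ± 0.43 for beta (fgb) and 10.43 ± 0.42 for alpha (fga). Prothrombin (f2), the precursor of the clotting enzyme thrombin, was at 852, 1105 and 863 FPKM in livers of large females and 1363, 1570.2 and 1245 FPKM in livers of small females, against at most 32.2 FPKM in the 24 others.

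The acute phase and antimicrobial list was less uniform: 11 of 16 members were tested, 8 were higher than the mean and 4 were higher than in each tissue, and the list median lay 2.76 above that of all genes. With TMM 0 were lower than the mean, whereas on the FPKM scale 5 were higher and 3 lower. The TMM shares were 72.7% higher than the mean, beside 26.9% of all genes, and 36.4% higher than in each tissue, beside 9.3%. Hepcidin-like (hamp), a peptide hormone that lowers iron release in mammals, was at 25.2, 104 and 40.7 FPKM in livers of large females and 1542, 352 and 46.1 FPKM in livers of small females. The first and second small livers stood above the other 4, of which 3 were below the highest value elsewhere (61.6 FPKM, in muscle). Liver-expressed antimicrobial peptide 2 (leap2) was at 61.3, 106 and 85.6 FPKM in livers of large females and 5.90, 28.4 and 111 FPKM in livers of small females, above the 3.56 FPKM that was highest elsewhere. Lysozyme C (lyz), which breaks bacterial walls, was at 141, 192 and 247 FPKM in liver (lowest, median and highest), and the brain libraries had 248 to 611 FPKM. In FPKM all livers thus lay below all brains, while with TMM scaling the log2 difference of liver over brain was 0.70 (adjusted p = 0.034).

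The 5 plasma protein lists together held a share of counts of 26.2, 39.3 and 28.2% in livers of large females and 42.8, 40.4 and 38.3% in livers of small females, against 0.702 to 1.52% in brain, 0.327 to 0.424% in pituitary, 0.0451 to 0.0529% in gonad and 0.487 to 1.41% in muscle. The share was lowest in the first and the third large livers, which held most pancreatic counts. With the pancreatic genes left out of the total, the share was 39.2, 46.5 and 45.4% in livers of large females and 45.0, 44.4 and 47.3% in livers of small females. The first large liver, which also held most yolk precursor counts, was then the lowest. Among 351 genes higher than in each tissue with no overlap and at least 50 FPKM in liver, the highest value outside liver came from a muscle library in 174, from brain in 71, from pituitary in 71 and from gonad in 35.

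**Figure D2:**
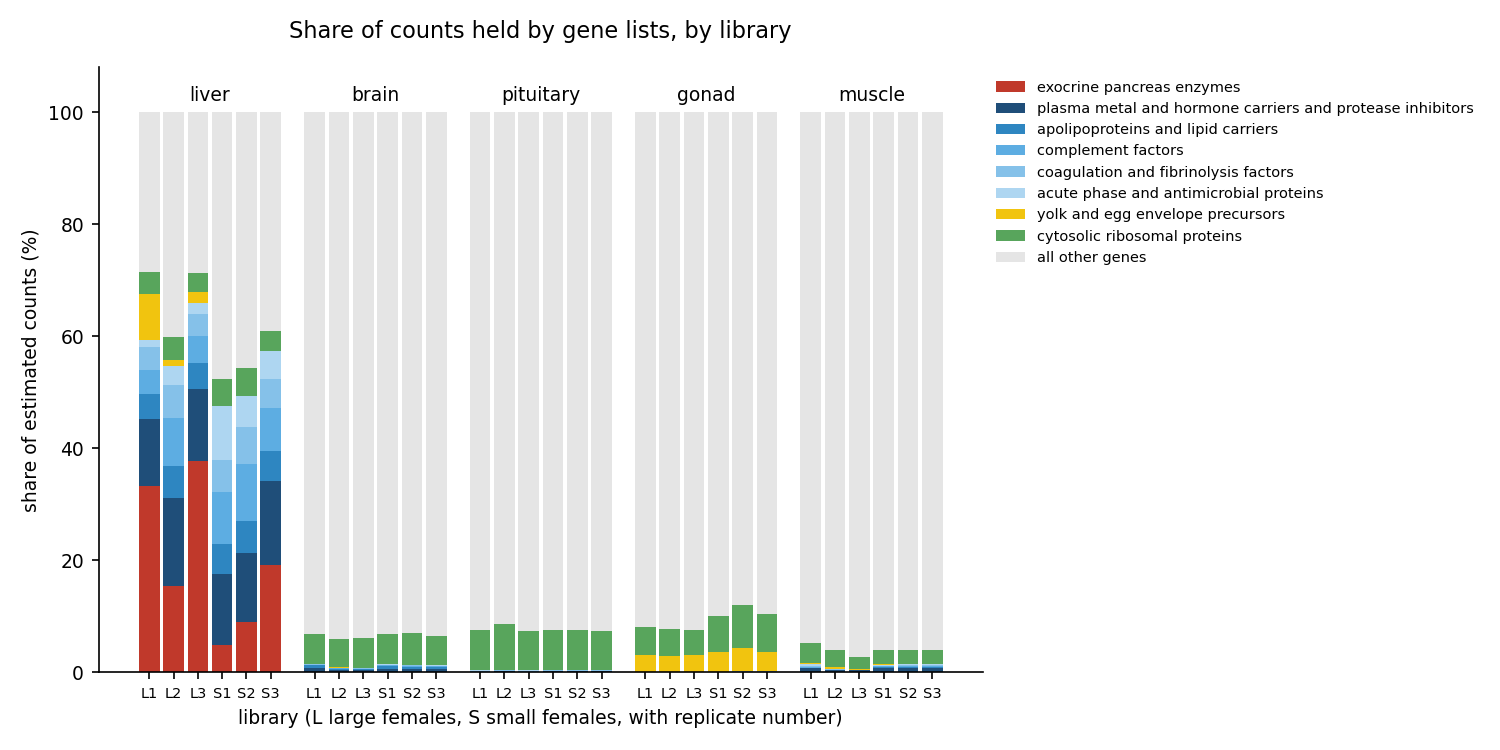
Stacked bars give the share of estimated counts (%) held by gene lists in each of the 30 libraries, liver at the left, L for large and S for small females with the replicate number. Pancreatic enzymes (red) hold 4.80 to 37.8% and the plasma protein lists (blues) 26.2 to 42.8% of the counts of a liver, and yolk and egg envelope precursors (yellow) are visible in the large livers and in gonad.

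The lists of hepatic metabolism differed in how many members were higher in liver and in how far this held on the FPKM scale. For glucose and fructose metabolism, 17 of 18 members were tested, 13 were higher than the mean, 0 lower, and 11 higher than in each tissue (list median 5.28 above all genes), with 12 higher and 4 lower on the FPKM scale. Sorbitol dehydrogenase (sord), which turns sorbitol into fructose, was at 105, 185 and 126 FPKM in livers of large females and 87.2, 179 and 146 FPKM in livers of small females. Its nearest tissue was the pituitary, at up to 38.1 FPKM, and no library overlapped. The glucose transporter slc2a2 was at 139 ± 38.2 FPKM in liver (SD, n = 6) and at most 3.81 FPKM elsewhere, a log2 fold change of 10.31 ± 0.31 (adjusted p = 1.2e-22). Fructose-1,6-bisphosphatase 1-like (fbp1b), an enzyme of gluconeogenesis, was at 323 ± 60.4 FPKM, with up to 51.04 FPKM in gonad.

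For amino acid breakdown, 53 of 56 members were tested, of which 37 (69.8%) were higher than the mean and 7 (13.2%) lower. For all genes these shares were 26.9% and 41.2%. Higher than in each tissue were 28, and the list median lay 2.90 above all genes. On the FPKM scale 28 were higher and 20 lower than the mean. Tryptophan 2,3-dioxygenase (tdo2), which opens the tryptophan ring, was at 53.98, 261 and 159 FPKM in livers of large females and 616, 908 and 397 FPKM in livers of small females. Even the lowest of these was above the 11.2 FPKM reached in a muscle of small females. The 4-hydroxyphenylpyruvate dioxygenase gene hpda, of tyrosine breakdown, had a log2 fold change of 9.92 ± 0.45, and serine-pyruvate aminotransferase (agxta), of glyoxylate metabolism, one of 7.70 ± 0.32. Of cytochrome P450 and conjugation enzymes, 42 of 54 tested were higher, 8 lower and 35 higher than in each tissue (list median 4.56), with 34 higher and 16 lower on the FPKM scale. Cytochrome P450 2F2-like (LOC103379545) was at 695, 1072 and 720.4 FPKM in livers of large females and 286, 249 and 768 FPKM in livers of small females. It did not exceed 16.4 FPKM elsewhere, and its 2 lowest livers were the first and second small ones.

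Bile acid synthesis and transport had 12 of 19 tested members (63.2%) higher and 4 (21.1%) lower than the mean, beside 26.9% and 41.2% of all genes. The list median lay 5.37 above all genes, and on the FPKM scale 11 were higher and 8 lower. The gene named 5-beta-cholestane-3-alpha,7-alpha-diol 12-alpha-hydroxylase-like (LOC103396384) was at 52.8 ± 18.5 FPKM, against at most 15.8 FPKM elsewhere. The canalicular exporter abcc2, which moves conjugates into bile, was at 10.4, 12.7 and 8.15 FPKM in livers of large females and 35.2, 24.5 and 10.8 FPKM in livers of small females, above every other library. The gene named sodium/bile acid cotransporter (slc10a1), after the uptake carrier of mammalian hepatocytes and chosen here after its values were seen, had 0 counts in all 6 livers. Brain had 397 counts over 6 libraries and gonad 500, so that the gene was at least 155-fold lower in liver than in brain and at least 149-fold lower than in gonad, per library total and with a floor of 3 counts over the 6 livers. Fatty acid and sterol synthesis had 19 of 30 higher and 7 lower (list median 1.62) with TMM, but 10 higher and 15 lower on the FPKM scale. On that scale the list median still lay 0.58 above that of all genes. The gene elovl5, whose product elongates polyunsaturated fatty acids, was at 10.9, 20.7 and 11.5 FPKM in livers of large females and 49.02, 11.5 and 3.15 FPKM in livers of small females. Its lowest liver was below the 3.69 FPKM of the highest other library, a pituitary of small females. Diacylglycerol O-acyltransferase 2 (dgat2), the last step of triglyceride synthesis, was at 44.4 ± 8.12 FPKM in liver and did not pass the threshold against gonad (log2 difference 0.56, adjusted p = 0.18).

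Transcription factors of hepatocytes were among the genes with high folds at low levels. Of 29 tested, 24 were higher than the mean, 0 lower, and 22 higher than in each tissue (list median 5.98 above all genes). CCAAT/enhancer-binding protein beta-like (cebpb), a regulator of metabolic and acute phase genes in mammals, was at 36.2, 56.5 and 32.9 FPKM in livers of large females and 136, 121 and 68.5 FPKM in livers of small females, with no other library above 20.7 FPKM and a log2 fold change of 4.75 ± 0.14. CCAAT/enhancer-binding protein alpha (cebpa), which drives metabolic genes, was at 15.1, 31.9 and 48.7 FPKM (lowest, median and highest liver) and up to 25.4 FPKM in brain, where the ranges overlapped in FPKM. CCAAT/enhancer-binding protein delta (cebpd), an acute phase regulator in mammals, did not pass the test against the mean (log2 fold change 0.09 ± 0.27, adjusted p = 0.82). Its level was 3.65, 15.8 and 10.3 FPKM in livers of large females and 106, 124 and 47.01 FPKM in livers of small females, so the 3 small livers lay above the 3 large ones.

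Of the growth axis genes that liver makes or responds to, 15 of 25 tested (60%) were higher than the mean and 5 (20%) lower. For all genes these shares were 26.9% and 41.2%. Higher than in each tissue were 9, and the list median lay 2.0 above all genes. On the FPKM scale 8 were higher and 12 lower, with a list median 0.75 above that of all genes. Insulin-like growth factor 1 (igf1), the hormone through which growth hormone acts, was at 15.4, 39.1 and 38.5 FPKM in livers of large females and 17.7, 44.5 and 41.2 FPKM in livers of small females. The 24 other libraries had 0.49, 1.72 and 2.80 FPKM (lowest, median and highest), so no library overlapped, and the log2 fold change was 6.12 ± 0.18 (adjusted p = 3.8e-23). The acid labile subunit gene igfals, whose product holds the hormone in plasma, was at 24.3 ± 10.5 FPKM and at most 0.46 FPKM elsewhere. Insulin-like growth factor-binding protein 2 (igfbp2) was at 72.5, 123 and 179.8 FPKM in liver and up to 607 FPKM in pituitary, and did not pass the threshold against pituitary with TMM (log2 difference 0.02, adjusted p = 0.97).

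Pancreatic genes gave the largest folds. Of 39 genes of the exocrine pancreas enzyme list, 33 were tested, 30 were higher in liver than in each tissue and 2 lower than the mean, and the list median lay 13.12 above that of all genes. Their share of counts was 33.2, 15.4 and 37.8% in livers of large females and 4.80, 8.90 and 19.1% in livers of small females. In the 24 other libraries the share was at most 0.119%, in gonad. The exact permutation test of the 3 large against the 3 small livers gave p = 0.2 for this share, where 0.1 is the smallest p possible. The first and the third large livers were highest and the first small liver lowest, and the second large liver was below the third small one.

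Trypsin-1 (trypsase), the protease that activates the other zymogens, was at 53422, 22696 and 59677 FPKM in livers of large females and 9746, 16874 and 33849.5 FPKM in livers of small females. Outside liver its highest value was 85.8 FPKM, in a muscle of small females, and its log2 fold change was 13.45 ± 0.60 (adjusted p = 1.3e-18). The 12 largest folds among genes with no overlap and at least 50 FPKM in liver ran from 13.31 (cel.2, bile salt-activated lipase-like) to 13.65 (LOC103384941, chymotrypsin-like elastase family member 2A). Among them were carboxypeptidase B (cpb1) at 9302, 3309.6 and 8905 FPKM in livers of large females and 740.2, 2259.7 and 5654 FPKM in livers of small females, elastase-1-like (LOC103386721) and trypsin-3 (prss1). These 12 also held 3 genes that the list does not name, namely transcobalamin-1 (XLOC_015575), a vitamin B12 carrier, low choriolytic enzyme-like (LOC103378956), an astacin-type protease, and transmembrane protease serine 9-like (LOC103384948). The first of these was at 1972, 1045 and 2095 FPKM in livers of large females and 321, 454 and 1132 FPKM in livers of small females. Its order over the livers was that of trypsin-1, with the third and the first large livers highest and the first small liver lowest. In low choriolytic enzyme-like only the first and the third large livers changed places, at 16996, 5009.6 and 12697 FPKM in livers of large females and 1236, 2511 and 6278 FPKM in livers of small females. Amylase-3 protein (amylase), which digests starch and was chosen after its values were seen, was at 2376, 996 and 2286 FPKM in livers of large females and 427, 836 and 1353 FPKM in livers of small females and at most 12.1 FPKM elsewhere.

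Of 7 tested genes of the exocrine pancreas regulator and secretion list, 5 were higher than the mean and 1 lower. Against each tissue 4 were higher and 1 was lower. The transcription factors named here were present at low levels. Pancreas transcription factor 1 subunit alpha (ptf1a), the master regulator of acinar cells, was at 4.26, 5.33 and 7.28 FPKM in livers of large females and 2.29, 4.05 and 4.94 FPKM in livers of small females, against at most 0.58 FPKM elsewhere. Its partner rbpjl was at 6.26, 7.75 and 16.9 FPKM in livers of large females and 6.39, 10.6 and 7.96 FPKM in livers of small females. The gene PDIA2, a protein disulfide-isomerase-like product whose mammalian homolog is made in pancreas, was at 249, 121 and 215 FPKM in livers of large females and 54.9, 103 and 135 FPKM in livers of small females, with a log2 fold change of 11.43 ± 0.36. Of all genes 26.9% were higher and 41.2% lower than the mean. Of the endocrine list, 1 of 8 tested genes (12.5%) was higher and 2 (25%) were lower, both below those shares. The higher one was glucagon (gcg), the hormone of alpha cells, at 0.35, 58.2 and 0.11 FPKM in livers of large females and 220.4, 1059 and 14.1 FPKM in livers of small females. Its highest library was the second small liver, which was the second lowest for the enzyme share, and 2 large livers were below the highest other library (5.14 FPKM in brain). In the exocrine enzyme list, the pair of genes lower in liver was high in gonad. Trypsin-2-like (LOC103382459) was at 0.51 FPKM or less in liver and at 444 to 766 FPKM in gonad, and chymotrypsin B-like (LOC103382489) at 0.18 FPKM or less in liver and at 168 to 264 FPKM in gonad. Both were chosen after their values were seen. The part of pancreatic tissue in other liver differences was not tested. A refit without the genes of the 3 pancreas lists called 1792 genes higher and 1703 lower than in each tissue. Any other transcripts of pancreatic tissue stay in that fit.

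**Figure D3:**
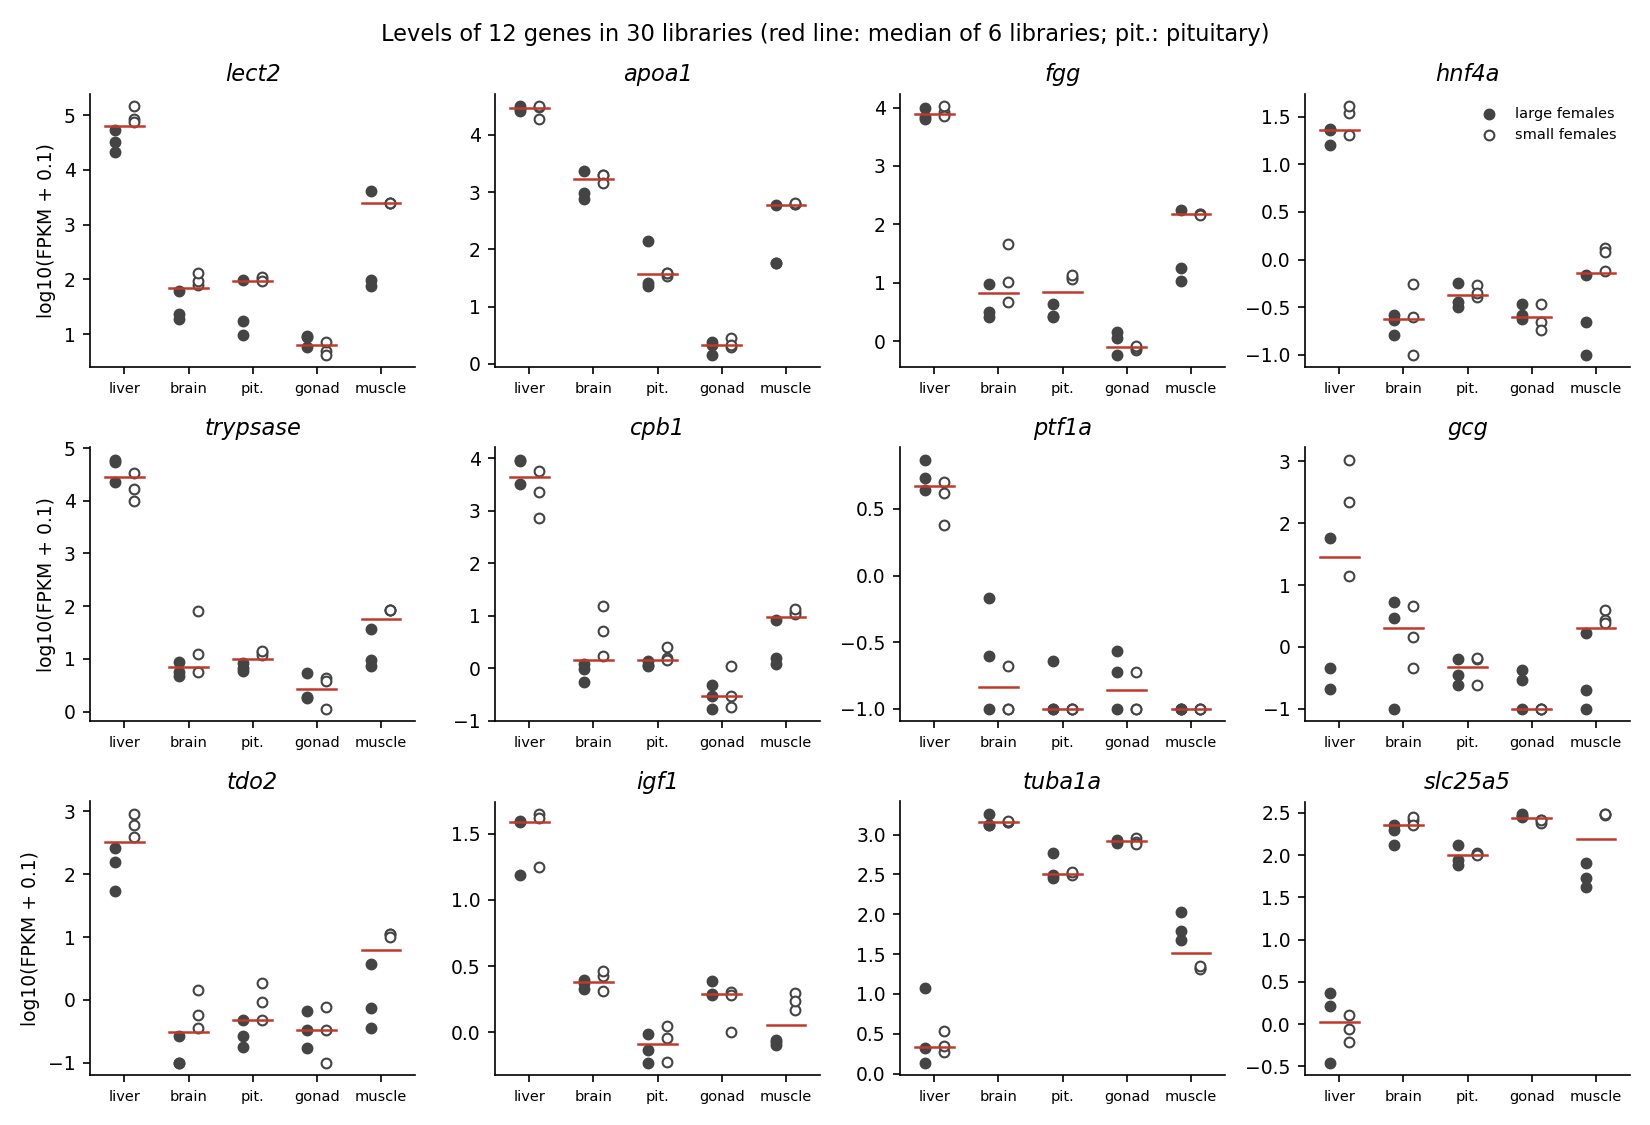
Points are log10(FPKM + 0.1) of 12 genes in each library, filled for large and open for small females, and red lines are medians of the 6 libraries of a tissue. In lect2, apoa1, fgg, hnf4a, trypsase, cpb1, ptf1a, tdo2 and igf1 the 6 livers are highest, in tuba1a and slc25a5 they are lowest, and glucagon (gcg) spans 0.11 to 1059 FPKM among livers.

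Yolk and egg envelope precursors fell into separate sets by tissue. Of 27 tested, 6 (22.2%) were higher in liver than in each tissue and 19 (70.4%) lower than the mean. For all genes these shares were 9.3% and 41.2%. The 6 were 3 vitellogenin-like genes and 3 zona pellucida genes, and each of the lower ones was a zona pellucida gene. Vitellogenin-like (LOC103392840) was at 7753, 830.0 and 1569 FPKM in livers of large females and 0.05, 0.3 and 0.37 FPKM in livers of small females. It was high in each large liver and near 0 in each small one, so livers overlapped with other tissues, and the fold of 11.59 ± 1.84 rests on the large females, as it was -1.38 in small females alone (adjusted p = 0.26). Zona pellucida sperm-binding protein 3-like (LOC103380130), an egg envelope protein that fish livers can make, was at 4677, 810.2 and 1086 FPKM in livers of large females and 0.38, 2.68 and 2.60 FPKM in livers of small females. Of the estrogen receptors, through which estrogen induces vitellogenin, 3 genes of the beta type (esr2a, esr2 and LOC103382744) were higher in liver than in each tissue with TMM. For esr2a the FPKM went the other way against pituitary, with 9.20 to 17.6 FPKM in liver and up to 30.7 FPKM in pituitary. Estrogen receptor (esr1) was at 0.42, 1.15 and 1.66 FPKM in liver (lowest, median and highest) and up to 569 FPKM in pituitary, and did not pass the threshold against the mean of 4 tissues (adjusted p = 0.18).

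Markers of other cells were low in liver. Summed over each list, neurons and glia reached 6.30 to 206 FPKM in liver, against up to 23214 FPKM in brain. Pituitary hormones reached 0.19 to 111 FPKM, against up to 236067 FPKM in pituitary, and oocyte genes 1.13 to 8.11 FPKM, against up to 6753 FPKM in gonad. Skeletal muscle genes reached 10.9 to 119.7 FPKM, against up to 244815 FPKM in muscle. Single livers stood out in these lists. Myelin basic protein-like (LOC103388795) was at 0.39, 92.8 and 0.44 FPKM in livers of large females and 0.37, 1.12 and 0.28 FPKM in livers of small females, and prolactin-like (prl) at 2.02, 0 and 2.44 FPKM in livers of large females and 49.9, 0.15 and 2.01 FPKM in livers of small females. The second large liver thus carried the brain transcripts and the first small liver the pituitary ones, while the highest brain library had 13213 FPKM and the highest pituitary library 35613 FPKM of these genes.

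Cells that belong to the liver were measured as well. Erythrocyte genes summed to 181 to 1699 FPKM, lowest in the first small liver, against up to 5158 FPKM in muscle, and 6 of 6 tested passed as higher with TMM and 1 on the FPKM scale, although hemoglobin alpha (hbae5) was lower than in muscle (log2 difference -1.75, adjusted p = 0.0016). Macrophage and neutrophil genes summed to 160.0 to 281 FPKM and endothelial genes to 13.04 to 32.7 FPKM. Lymphocyte genes summed to 16.5 to 34.3 FPKM and bile duct genes to 231 to 411 FPKM. Each sum was below the highest library of another tissue. With TMM, however, 11 of 16 macrophage and neutrophil genes were higher than the mean and 2 lower. Of endothelial genes 8 of 13 were higher and 3 lower, of lymphocyte genes 5 of 15 and 2, of bile duct genes 5 of 14 and 4. For all genes the shares were 26.9% and 41.2%. In FPKM 1, 0, 0 and 3 genes of these lists were higher and 8, 11, 12 and 9 lower. Stellate cell and fibroblast genes summed to 29.2 to 156 FPKM in liver, against 2531 to 2875 FPKM in muscle. With TMM 9 of 18 tested were higher than the mean and 4 lower, and 0 were higher than in each tissue. On the FPKM scale 0 of 16 were higher and 12 lower. Within that list collagen alpha-2(I) (col1a2), the main fibrillar collagen, was at 32.9, 29.6 and 31.5 FPKM in livers of large females and 3.26, 3.14 and 46.3 FPKM in livers of small females, so the first and second small livers were the lowest. The part of these cells in the differences between livers was not tested.

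Cytosolic ribosomal protein genes held a share of counts of 3.78, 4.09 and 3.33% in livers of large females and 4.68, 4.98 and 3.48% in livers of small females, against up to 8.17% in pituitary. By TMM 77 of 82 tested were higher than the mean and 63 higher than in each tissue, whereas on the FPKM scale 5 were higher and 50 lower. On that scale, too, the list median lay above that of all genes, by 0.82. The ribosomal protein S2 gene (rps2) was at 1731 ± 261 FPKM in liver and 1432 ± 91.7 FPKM in brain (SD, n = 6 each). Its log2 fold change was 1.47 ± 0.17 with TMM and -0.00217 on the FPKM scale, where the median of all genes was -1.06. For proteins of the endoplasmic reticulum secretory pathway, 55 of 71 were higher by TMM, and 21 higher and 34 lower on the FPKM scale. Their median on the FPKM scale lay 0.66 above that of all genes. Protein disulfide-isomerase (p4hb), which folds secreted proteins, was at 230.1, 432 and 250.1 FPKM in livers of large females and 262, 388 and 279.5 FPKM in livers of small females, against 397 to 500.0 FPKM in pituitary, the nearest tissue, where the FPKM ranges overlapped although the gene passed as higher with TMM. Cell cycle genes had 18 of 25 (72%) lower and 1 (4%) higher than the mean, beside 41.2% and 26.9% of all genes. With TMM, however, 0 of the 25 were lower than in each tissue. Gonad was far above the other tissues in this list, with a sum of 7104 to 8191 FPKM. The sum was 18.5 to 57.98 FPKM in liver, and up to 168 FPKM in brain, 345 FPKM in pituitary and 831 FPKM in muscle. Proliferating cell nuclear antigen (pcna), a clamp of DNA replication, was at 3.21, 7.0 and 13.5 FPKM in liver (lowest, median and highest). In FPKM all other libraries were above these values, and the lowest of them had 31.7 FPKM.

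**Figure D4:**
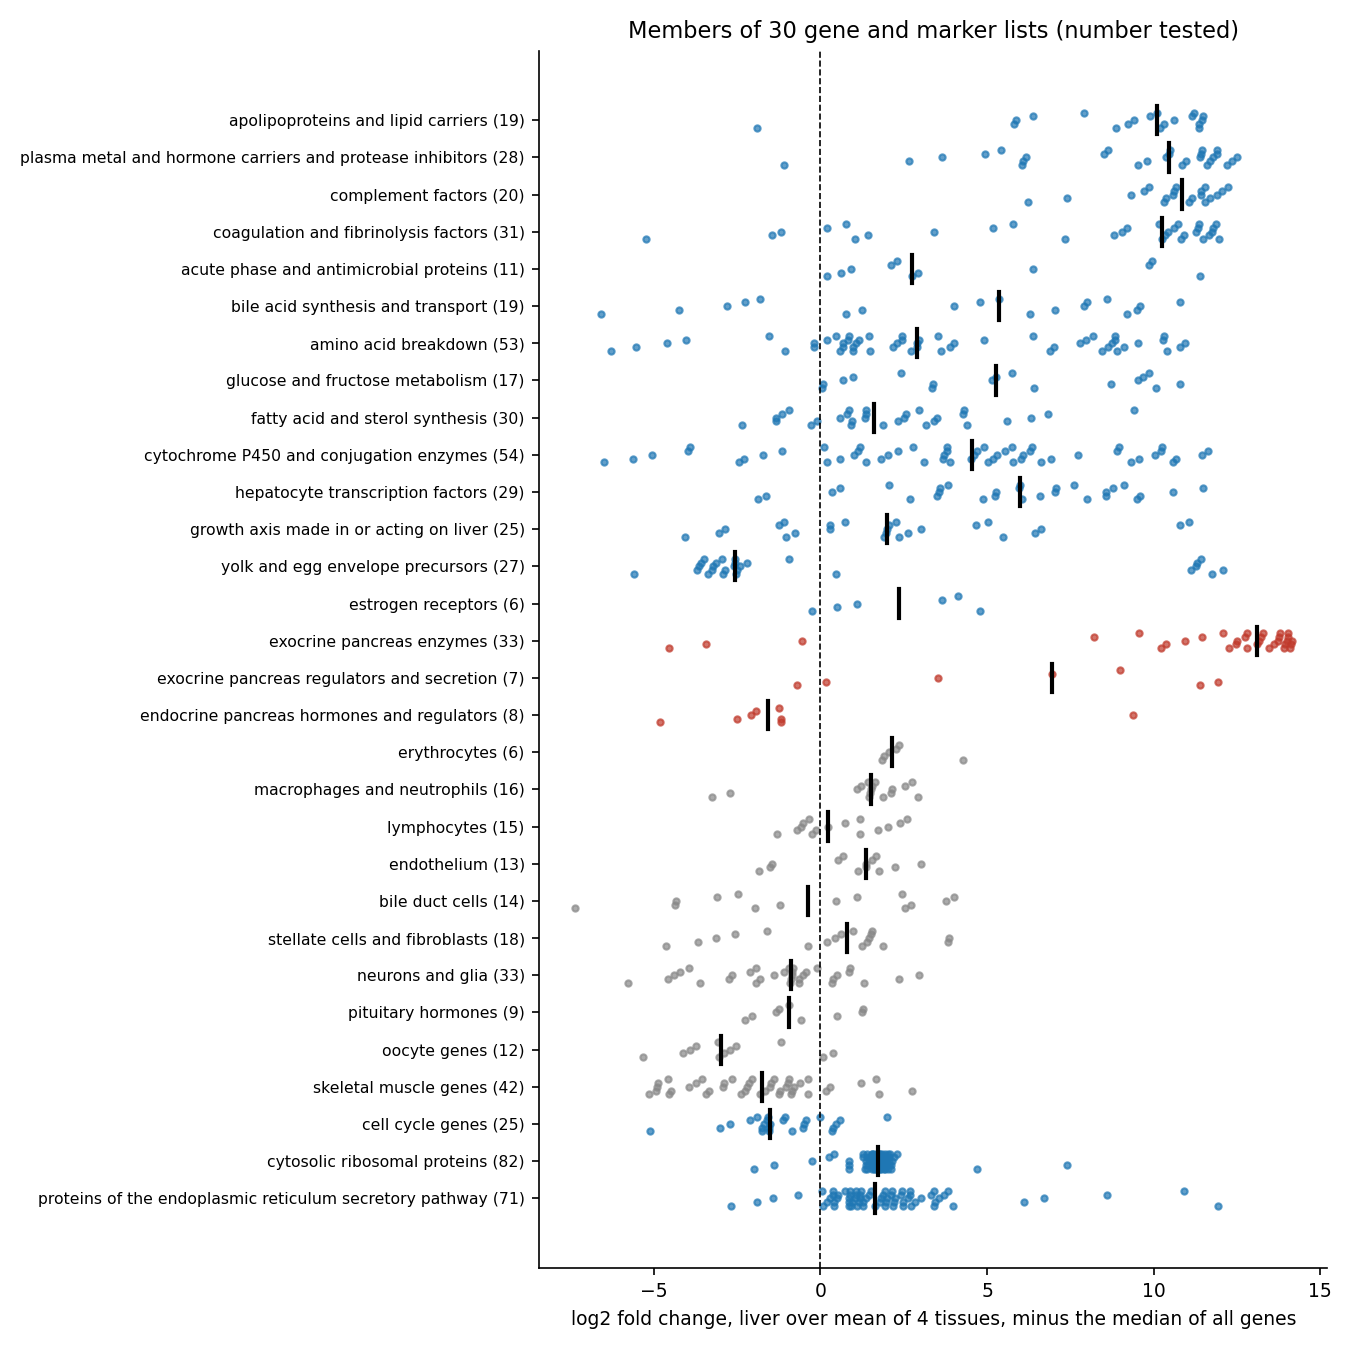
Points are members of 30 gene and marker lists by their log2 fold change of liver over the mean of 4 tissues, minus the median of all genes (dashed line at 0), and black bars are list medians. Pancreatic lists are red, gene lists blue and marker lists of other cells grey. The exocrine enzymes lie highest, at a median of 13.12, followed by complement, plasma carriers, coagulation factors and apolipoproteins, while oocyte genes have a median of -2.98.

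The 12 largest falls, among genes lower than in each tissue with at least 20 FPKM in all 4, were led by myosin regulatory light polypeptide 9-like (myl12.2), a subunit of non-muscle and smooth muscle myosin. It was at 0, 0.26 and 0 FPKM in livers of large females and 0.41, 0.14 and 0.32 FPKM in livers of small females. The other libraries had 29.5, 89.7 and 314 FPKM (lowest, median and highest), and the log2 fold change was -7.60 ± 0.33 (adjusted p = 9.9e-19). ADP/ATP translocase 3 (slc25a5), which exchanges nucleotides across the inner mitochondrial membrane, was at 1.56, 2.25 and 0.25 FPKM in livers of large females and 0.51, 0.78 and 1.19 FPKM in livers of small females, against 42.3, 226 and 307 FPKM in the others. Tubulin alpha-1A (tuba1a) was at 1.27, 11.7 and 1.98 FPKM in livers of large females and 3.30, 1.78 and 2.11 FPKM in livers of small females, and the lowest other library, a muscle, had 20.3 FPKM. Tubulin alpha-1A chain-like (LOC103389754), dynein light chain 2-like (LOC103395122) and tubb, whose product name in the table is that of another protein, fell by 5.12, 3.49 and 4.02 on the log2 scale. In tuba1a and tubb the second large liver, which held brain transcripts, was the highest of the livers.

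Acetyl-CoA acetyltransferase (acat1), the mitochondrial enzyme of ketone body and isoleucine metabolism, was at 1.70, 3.24 and 1.09 FPKM in livers of large females and 3.32, 2.88 and 2.63 FPKM in livers of small females, against 31.8, 76.03 and 91.3 FPKM elsewhere. It had the smallest SE of these falls (-3.31 ± 0.13). Malate dehydrogenase, cytoplasmic-like (LOC103386933), was at 1.45, 2.02 and 3.66 FPKM in liver and no lower than 16.1 FPKM elsewhere. Mid1-interacting protein 1-like (mid1ip1l), named after a regulator of fat synthesis in mammals, was at 6.68, 8.71 and 5.78 FPKM in livers of large females and 15.1, 12.6 and 9.96 FPKM in livers of small females and at 75.3 FPKM or more in the others. The remaining falls were ubiquitin carboxyl-terminal hydrolase L1 (uchl1), a neuronal deubiquitinase, at -3.73, mllt11 at -5.92 and slmapb at -3.53.

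Against single tissues, the counts of genes higher in liver were 4810 (24.7%) for brain, 4851 (24.9%) for pituitary, 7483 (38.4%) for gonad and 4053 (20.8%) for muscle. The counts of genes lower in liver were 8054 (41.3%) for brain, 7413 (38%) for pituitary, 7827 (40.1%) for gonad and 8044 (41.2%) for muscle. These comparisons share the liver libraries. The only gene tested with 0 counts in all 24 other libraries was mia2 (melanoma inhibitory activity protein 2), named after its values were seen. It had 93 counts in liver, 11 to 24 in each library, at least 117-fold more per library total when a floor of 3 counts over the 24 libraries is used.

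Whether the liver contrast differed between size classes was tested over all 10 groups of 3 libraries, as the liver minus the mean of the 4 other tissues in large females, less the same in small females. It differed in 636 genes (3.26%) in the direction of large females and in 1166 (5.98%) in the direction of small females (adjusted p below 0.05, edgeR). The split turned with the scaling and the test: 35.3% of the calls had a higher liver contrast in large females with TMM, 54.7% with RLE, 57.7% with DESeq2 and 4.76% with limma on log2(FPKM + 1). It also turned with 1 library of another tissue: with TMM and edgeR it was 51.6% without the second small gonad (820 higher and 768 lower). Of the exocrine enzymes, 18 of 33 tested had a higher liver contrast in large females and 0 a lower one, with a median difference of 3.11, beside -0.10 for all genes. Without the first and the third large livers, in which these enzymes held over 30% of counts, the calls were 246 in the direction of large and 105 in that of small females. That alternative was chosen after seeing the data and leaves 1 large liver, which is taken to vary like the other groups.

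The 8 calls with the smallest p among genes of at least 50 FPKM in liver were vitellogenins, proteins of the endoplasmic reticulum and a few others. Of 71 genes of the endoplasmic reticulum pathway tested, 15 had a lower liver contrast in large females and 3 a higher one, beside 5.98% and 3.26% of all genes. The 78 kDa glucose-regulated protein (hspa5), the main chaperone of the reticulum, was at 5.72, 51.7 and 4.43 FPKM in livers of large females and 388, 499.6 and 117 FPKM in livers of small females. The difference between size classes was -3.65 ± 0.55 (SE; adjusted p = 2.3e-04), and all 3 large livers lay below all 3 small ones. Of the large livers, the second had the lowest exocrine enzyme share of counts (15.4%) and the highest hspa5. The third small liver had a share of 19.1%, with hspa5 at 117 FPKM. The difference of hspa5 without the first and the third large livers was -2.44. Endoplasmin (hsp90b1) was at 28.1, 122 and 42.6 FPKM in livers of large females and 226, 1147 and 234 FPKM in livers of small females, with a difference of -2.49 ± 0.47 (adjusted p = 0.0014), which without those livers was -1.81 (adjusted p = 0.16). The gene of protein disulfide-isomerase A6 (pdia6) had a difference of -1.90 ± 0.28 (adjusted p = 1.9e-04), and -1.48 (adjusted p = 0.034) without them. Among genes in the opposite direction were reticulon-1 (rtn1), a membrane protein of the reticulum, and catalase (cat), which breaks down hydrogen peroxide. Rtn1 was at 234, 195 and 202 FPKM in livers of large females and 22.4, 33.7 and 29.6 FPKM in livers of small females, and the difference was 3.41 ± 0.29 (adjusted p = 5.3e-08), and 2.88 (adjusted p = 6.2e-06) without the first and the third large livers. Catalase was at 92.8, 154 and 105 FPKM in livers of large females and 28.1, 28.6 and 66.3 FPKM in livers of small females, with a difference of 1.88 ± 0.29 (adjusted p = 2.6e-04). The highest small liver was below the lowest large one. A lymphocyte antigen 6D-like gene (XLOC_007276) had a difference of -3.78 ± 0.58 (adjusted p = 2.3e-04), which without the first and the third large livers was -2.77 (adjusted p = 0.047). A phospholipid hydroperoxide glutathione peroxidase gene (LOC103395914), whose product reduces lipid peroxides, had a difference of -1.86 ± 0.29 (adjusted p = 2.5e-04), which without those livers was -1.43 (adjusted p = 0.0599) and did not pass the threshold. The part of pancreatic and other cells in these differences was not tested.

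In the vitellogenins the difference was 14.33 ± 1.67 for LOC103392297 (adjusted p = 8.1e-06) and 15.002 ± 1.78 for LOC103392840 (adjusted p = 1.0e-05), and the 3 small livers had at most 0.37 FPKM of LOC103392840. The estrogen receptor beta gene esr2 was at 14.4, 23.1 and 14.2 FPKM in livers of large females and 1.45, 3.52 and 5.22 FPKM in livers of small females, and its difference was 2.29 ± 0.46 (adjusted p = 0.0024). Of the 5 plasma protein lists, 5 of 109 list entries tested had a higher liver contrast in large females and 0 a lower one. Of all genes tested 3.26% were called higher and 5.98% lower, so the count of higher entries was near the share of all genes. Igf1 had a difference of 0.83 ± 0.35 (adjusted p = 0.14), which did not pass the threshold. Without the third small liver it was 1.13 (adjusted p = 0.034), and on the FPKM scale -0.03 (adjusted p = 0.97, limma). Of hepatocyte transcription factors, 1 of 29 had a lower liver contrast in large females, no more than the share of all genes. This was cebpd at -1.80 ± 0.35 (adjusted p = 0.0019, edgeR), and at -1.43 without the first and the third large livers.

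**Figure D5:**
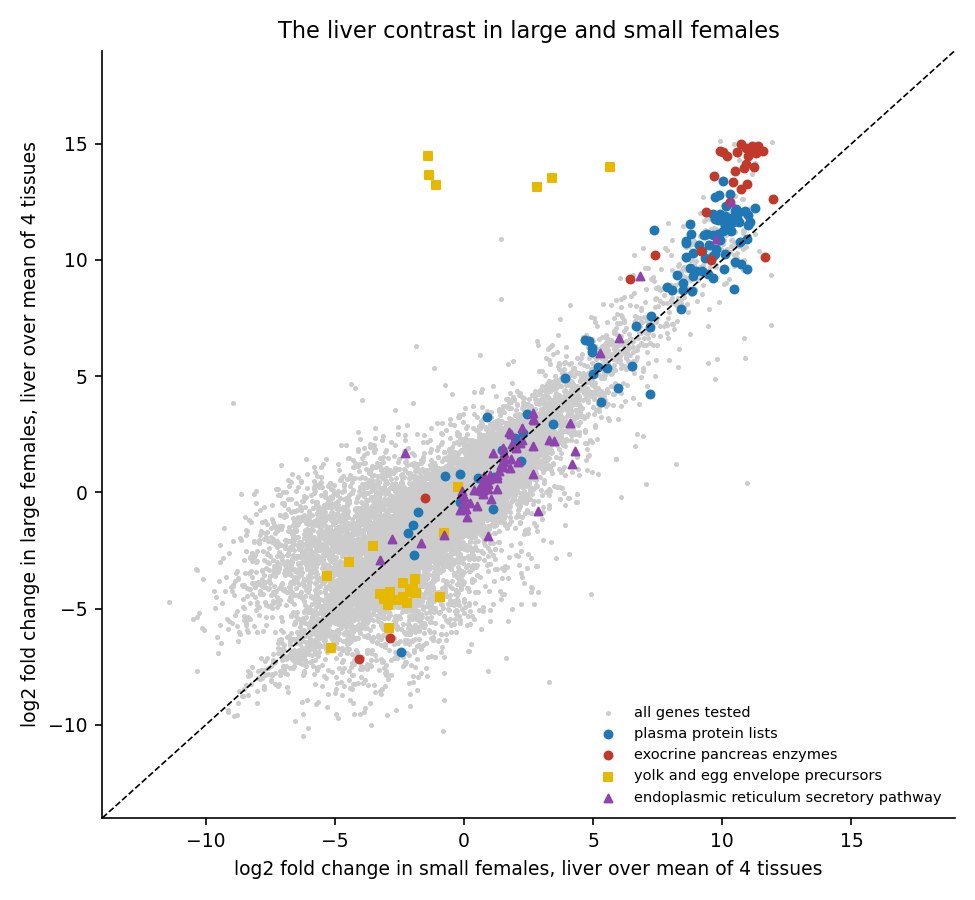
Each point is a gene by its log2 fold change of liver over the mean of 4 tissues in small females (x axis) and in large females (y axis), and the dashed line marks equality. Exocrine enzymes (red) lie above the line at a median difference of 3.11, yolk and egg envelope precursors high in large livers (yellow) lie farthest above it, and 15 genes of the endoplasmic reticulum pathway (purple) differ below it.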

How the data were processed

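RNA of 30 libraries (5 tissues, 2 size classes, 3 libraries each) was sequenced on Illumina instruments, per the labels. Per the file headers, the authors deposited 1 table with an estimated count and an FPKM value for each of 22292 genes in each library. About 2% of the estimated counts were not whole, and all were rounded here. The submitters' processing notes name edgeR. Neither the aligner and counting tool nor the build is given in the sources used here. Of 20373 gene numbers, 19502 matched the RefSeq gene table, and 1919 further loci carry only a locus number. Genes with near-identical copies (trypsins, chymotrypsins, elastases, complement C3, vitellogenins, hemoglobins) may share reads, and strand use is not stated.

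Counts were fitted with edgeR 4.0.16 (TMM factors, filterByExpr, quasi-likelihood test, Benjamini-Hochberg adjustment) in R 4.3.3 with tissue and size class as terms. Liver was compared with the mean of the 4 other tissues and with each of them, and a model of all 10 groups gave the difference of the liver contrast between size classes. The SE of a fold was not fitted by edgeR. It was computed as the absolute log2 fold change divided by the square root of the F statistic of its test. A gene is called higher than in each tissue where all 4 comparisons have an adjusted p below 0.05 with 1 sign. Alternatives used limma 3.58.1 on log2(FPKM + 1) and log2(FPKM + 0.1), where a fold understates the change of low genes, and DESeq2 1.42.0. Library-level values were compared with exact two-sided permutation tests (scipy 1.17.1). On simulated data, with 200 of 17963 genes changed, the comparison with the mean recovered 82% of 2-fold and 99% of 4-fold changes with 9 false calls. The comparison with each tissue recovered 53% and 96% with 0 false calls. The size class difference, with 100 of 17938 genes changed, recovered 79% of 4-fold changes with 4 false calls. These simulations changed few genes in tissues that were otherwise alike. In the real data most genes were called and the calls moved with scaling, an error that the simulations do not measure.

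The members, gene lists and tests were chosen with earlier results of these data known. Lists were filled by symbol and product name, and 62 members whose product name named another kind of protein were removed after their names were seen. Genes named in the text were the 15 highest in liver, the 12 largest rises (at least 50 FPKM in liver) and 12 largest falls (at least 20 FPKM in each other tissue) without overlap, up to 4 highest members of each list, the 8 smallest p of the size class difference (at least 50 FPKM), and the defining genes of hepatocytes. Genes outside this rule are marked as chosen after their values were seen, and 3 genes that the rule names are not reported here.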

Additional observations from a re-analysis of the deposited data

Results flagged for a closer look

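In 21 of 116 named genes 1 of the 6 liver libraries stood apart from the other 5 by Dixon's test. Chance alone gives this in about 1 of 20 groups of normal values from a single population. The values here were FPKM over both size classes, so that rate is no yardstick for the 21. All 21 were in 4 libraries. In the second large liver these were LOC103388795 (myelin basic protein-like) at 92.8 FPKM, mbpa (myelin basic protein-like) at 37.6 FPKM, neff2 (neurofilament light polypeptide-like) at 30.8 FPKM, tubb at 12.9 FPKM, tuba1a at 11.7 FPKM and mllt11 at 2.41 FPKM. In the first small liver these were the pituitary hormone genes prl at 49.9 FPKM, cga at 34.9 FPKM and tshba at 19.6 FPKM, and also LOC103393827 at 25697 FPKM, LOC103389010 at 7053 FPKM, hamp at 1542 FPKM and LOC103382489 at 0.18 FPKM. The second small liver was highest for glucagon (gcg) at 1059 FPKM, creatine kinase (ckma) at 35.6 FPKM, endoplasmin (hsp90b1) at 1147 FPKM and calreticulin-like (LOC103399827) at 682 FPKM. The first large liver was highest for the yolk and egg envelope genes LOC103392840 at 7753 FPKM, LOC103392297 at 7003 FPKM, LOC103380130 at 4677 FPKM and LOC103380189 at 1263 FPKM, and lowest for the plasma protein share without pancreatic genes, at 39.2%. The cause of these values was not tested.

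The liver contrast differed between size classes in 636 genes toward large and 1166 toward small females by the interaction term of edgeR. Among pancreatic genes the log2 difference, large minus small, was 3.33 for trypsase, 3.63 for LOC103378820, 3.69 for LOC103378813, 3.49 for LOC103377202, 3.93 for prss1, 3.74 for LOC103384941, 4.29 for LOC103389003, 3.93 for LOC103389004, 3.55 for LOC103386721, 3.68 for cpb1, 3.11 for cel.2 and 3.64 for amylase. It was 4.34 for LOC103378956 and 3.73 for LOC103384948, a pair of genes outside the pancreas list among the 12 largest folds in liver. Yolk and egg envelope genes had 15.002 for LOC103392840, 14.33 for LOC103392297 and 15.86 for LOC103380189, and the estrogen receptor genes 2.82 for LOC103382744 and 2.29 for esr2. Of the other genes with a higher liver contrast in large females, the difference was 3.41 for rtn1, 1.88 for cat, 1.98 for agxta, 1.02 for sord, 1.56 for gstr, 1.42 for igfbp2, 1.93 for hbae5, 0.76 for p4hb and 0.73 for ssr2. A higher contrast is not a higher level in liver: the FPKM of sord and p4hb overlapped between large and small livers. Among genes low in liver the difference was 6.70 for mllt11, 2.07 for slc25a5 and 2.06 for tubb. In mllt11 (2.41 FPKM) and tubb (12.9 FPKM) the second large liver, which held brain transcripts, stood apart from the other livers. Genes with a lower liver contrast in large females had -3.65 for hspa5, -2.49 for hsp90b1, -1.90 for pdia6, -3.78 for XLOC_007276, -1.86 for LOC103395914, -1.80 for cebpd, -1.07 for pcna and -6.22 for tshba, the last with its pituitary transcripts in the first small liver.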

How the results depend on the processing

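The counts against the mean of 4 tissues and against each tissue stayed within 1.5 times under RLE scaling, DESeq2, no count filter, a robust spread, no size class term, removal of pancreatic genes and each of 30 single libraries left out. These left-out counts were 5080 to 5914 higher and 7184 to 8032 lower than the mean, and 1772 to 2095 higher and 1324 to 1766 lower than in each tissue. The values 5914, 7184, 2095 and 1324 all came from the fit without the second small gonad. Limma on FPKM, which changes the measure, the scaling and the test together, moved them: with a pseudocount of 1, 1500 were higher and 16236 lower than the mean, and 751 higher and 3986 lower than in each tissue (15.9% higher, against 51.5% with TMM). With 0.1 these were 1631, 15796, 709 and 4977. Of the genes higher with TMM, 28.1% were also higher and 2219 were lower with FPKM and a pseudocount of 1, while 99.5% were also higher with DESeq2. A minimum absolute log2 fold change of 1 left 2794 higher and 4168 lower than the mean, and 1038 and 667 against each tissue. Without a tissue term 2320 were higher. Large females alone gave 981 genes lower than in each tissue and small females alone 1134.

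For the difference between size classes, DESeq2 gave 1490 genes with a higher liver contrast in large females, RLE scaling 761 lower, and limma on FPKM 280 higher and 5608 lower (pseudocount 1) or 269 and 6290 (pseudocount 0.1). Leaving out 1 library gave 307 to 1093 higher and 643 to 1684 lower, the lowest of each without the first small liver and the highest of each without the third small liver. Without the second small liver 342 were higher. The genes lower numbered 688 without the first large liver and 648 without the third large liver. Without the second small gonad 820 were higher and 768 lower, so that the split turned. Without the first and the third large livers, chosen after seeing the data, 246 were higher and 105 lower.

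Of 95 named genes under 2167 alternative values, 11 values changed sign: LOC103392840 (-1.38) and LOC103392297 (-1.13) in small females alone, rtn1 in small females alone (-0.029) and without gonad (-0.25), hspa5 in large females alone (-0.55) and with FPKM (-0.74 and -0.80), LOC103395914 (-0.58 and -0.60) and rps2 (-0.00217 and -0.00211) with FPKM. So did the medians, relative to all genes, of the endocrine pancreas (0.0775) and bile duct lists (0.619) with FPKM, and the igf1 size class difference (-0.0283) with FPKM. Each list median that lay above that of all genes with TMM was smaller with FPKM, also relative to all genes. For hepatocyte transcription factors it was 3.30 with FPKM against 5.98 with TMM, and for coagulation factors 7.44 against 10.26.

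Same-numbered libraries of liver and another tissue correlated at r = -0.0132 to 0.257, above 0.1 in 4 of 24 pairs. Of 24 matches, each among 3 candidates, 17 were best with their own number. The numbers were not taken to pair the libraries, since not every pair passed 0.1. In large females, however, all 3 pairs of liver and pituitary passed it (0.107, 0.257 and 0.124), as did 0 of 48 pairs with different numbers (highest 0.0884). Each liver also matched its own number best, among 3 candidates, in brain and gonad of small females and in muscle of large females. A pairing by number thus remains possible. With 6 fish named per size class and 2 per library, the tissues would share their fish whichever numbers pair. The main fit and the permutation tests nevertheless took libraries of different tissues as independent. With a replicate block 5137 genes were higher and 7983 lower than the mean, 1764 and 1681 against each tissue, and 618 and 1080 between size classes, all within 1.5 times. With 64.0 to 78.5% of liver counts in 100 genes, the depth left for other genes was limited.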

Other observations

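Many genes that stood above all other tissues in liver belonged neither to the pancreas lists nor to the lists counted here as liver lists. The lists of cell cycle, ribosomal protein and endoplasmic reticulum genes and the cell markers were not counted. Their members can be among the genes in neither. Of the 351 genes higher than in each tissue, with no overlap in normalised CPM and at least 50 FPKM in liver, 27 were in the pancreas lists, 113 in a liver list and 211 in neither. Among the 100 with the highest liver FPKM these numbers were 17, 40 and 43. The locus XLOC_006031, which has no product name, was sixth in liver by mean FPKM, at 9109, 16229.7 and 8579 FPKM in livers of large females and 47983, 26795 and 22697 FPKM in livers of small females. The highest of the 24 other libraries, a muscle of large females, had 1604 FPKM of this locus. Insulin-like growth factor-binding protein 1 (LOC103396286), which in mammals rises in liver in fasting, was at 33.8, 74.5 and 40.6 FPKM in livers of large females and 157, 246 and 149 FPKM in livers of small females. The 3 small livers lay above the 3 large ones, yet the difference between size classes of the liver contrast was 0.32 ± 0.61 with TMM (adjusted p = 0.91, edgeR), and no other library passed 4.48 FPKM.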
